A study of Mus musculus with 6 samples.

Results

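The 9 genes described here are the Notch ligands Jag1, Jag2 and Dll4, the receptors Notch1, Notch2, Notch3 and Notch4, and the target genes Hes1 and Hey1. They were taken by name, and all 9 had a row in the 4 Drop-seq tables and in both bulk tables, out of 49492 genes listed in any table. The other 43 of 52 genes of a Notch pathway list were used as a wider setting.

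Notch receptors are membrane proteins that are switched on by ligands on a neighbouring cell. Binding lets an ADAM protease and then the gamma-secretase complex cut the receptor, and the released intracellular part joins the DNA-binding protein Rbpj in the nucleus, where it turns on genes of the Hes and Hey families. In blood vessels Dll4, Notch1 and Notch4 are known for endothelial sprouting and arterial identity and Notch3 for the smooth muscle and pericytes around the vessel, while Notch2 is known in the kidney for its part in forming the nephron.

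The glomerulus is the filtering tuft of capillaries in the kidney, and all samples were glomeruli of 8-week-old male CD1 IGS outbred mice. Cells dissociated from the tuft and fixed in 80% methanol gave 4 Drop-seq libraries (replicates 1 to 4) and 1 bulk RNA-seq library, and whole, unfixed glomeruli gave 1 more bulk library. Drop-seq counts each captured transcript of a single cell once, by a unique molecular identifier (UMI). Nothing in the labels tied each Drop-seq library to its own animals. The p-values therefore rest on the scatter among 4 libraries, part or all of which may be technical. The bulk groups had 1 library each.

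The Drop-seq libraries held 3528543 to 6411775 UMIs, and 13993 of 15465 barcodes were kept, with a median of 965 UMIs. Clusters were drawn without the 52 pathway genes and named from marker genes. They held 1859 endothelial-like, 326 mural-like (mesangial, smooth muscle and renin cell markers), 10469 podocyte-like, 359 parietal epithelial-like, 928 tubular-like and 52 immune-like cells. The parietal epithelial-like name rested on 4 detected markers. Podocyte markers made up 1.55% of UMIs in parietal epithelial-like cells, whose own markers made up 0.0536%, and in vascular types 0.478% (endothelial-like) and 0.373% (mural-like), against 2.4% in podocyte-like cells. Markers of 2 types stood in 24.2% of tubular-like, 20.2% of mural-like, 16.6% of endothelial-like, 10.9% of parietal epithelial-like and 2.03% of podocyte-like cells. Tubular-like cells had a median of 14.3% mitochondrial UMIs, against 4.26% to 6.81% in the other tested types. Of all barcodes, 15 occurred in 2 or more libraries, 3 of them among the kept cells.

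Single-cell levels are in CPM: all UMIs of a cell type in a library are summed, and a gene's UMIs are given per 1000000 of them. Each cell type was set against the mean of the other 4 on the log2 scale with edgeR's quasi-likelihood test, paired by library and adjusted over 15455 genes (threshold 0.05). In endothelial-like cells 7 of the 9 genes were higher (21.2% of all genes tested were) and 2 were lower (8.55%). In mural-like cells 4 were higher (6.57%) and 0 lower (5.56%). In podocyte-like cells 1 was higher (17.9%) and 4 were lower (10.3%), in parietal epithelial-like cells 0 were higher (4.49%) and 1 was lower (3.35%), and in tubular-like cells 0 were higher (24.3%) and 3 were lower (12.1%). DESeq2 gave 12 higher and 13 lower calls over the 5 cell types, against 12 and 10 with edgeR, and its higher calls held Notch1 in mural-like cells (adjusted p = 0.0116) in place of Notch2 in podocyte-like cells. Over the 5 genes with a UMI in every cell type, the median log2 difference was 3.06 in endothelial-like, 1.34 in mural-like, -1.56 in podocyte-like, -0.47 in parietal epithelial-like and -1.41 in tubular-like cells. The same medians over the 11664 genes detected in every type lay between -0.20 and 0.13.

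**Figure D1:**
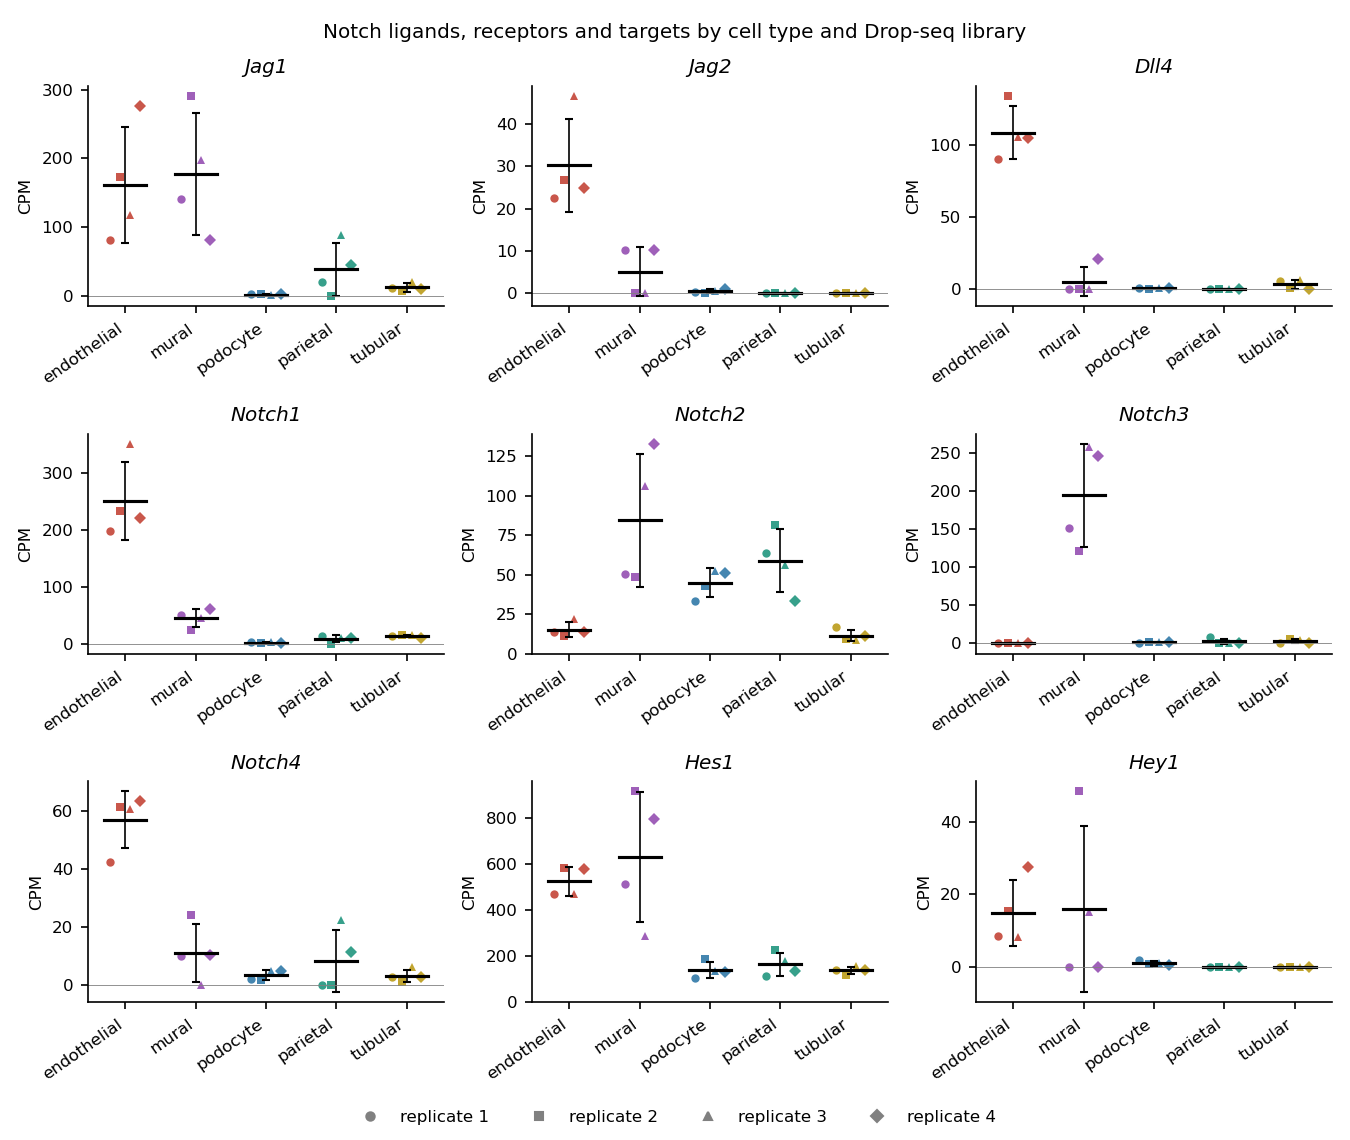
CPM of the 9 genes (one panel each, linear axes of different height) in 5 cell types, with one symbol per Drop-seq library, the mean as a bar and the SD over 4 libraries as a whisker. Dll4, Jag2, Notch1 and Notch4 stand highest in endothelial-like cells, Notch3 in mural-like cells, and Notch2 is the one receptor with at least 33.2 CPM in every library of podocyte-like and parietal epithelial-like cells.

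Dll4 (Delta-like 4, chr2:119325784-119335962 in GRCm38, plus strand) is a membrane ligand known from vessel sprouting. It stood at 90.2, 134, 105.5 and 104.7 CPM in endothelial-like cells of replicates 1 to 4. In podocyte-like cells it stood at 0.310, 0.229, 0.877 and 0.340 CPM, in tubular-like cells at 5.65, 0.936, 6.08 and 0 CPM, and in mural-like cells 2 UMIs were found, both in replicate 4. Every endothelial-like value lay above every value of the other 4 tested types, and 157 of the 170 Dll4 UMIs in kept cells (92.4%) lay in endothelial-like cells. The endothelial-like level was higher than that of tubular-like cells by 5.22 ± 0.47 on the log2 scale (SE, edgeR adjusted p = 1.08e-27) and than that of mural-like cells by 4.31 ± 0.68 (edgeR adjusted p = 5.43e-09). The 52 immune-like cells held 1 Dll4 UMI, which in replicate 1 made 161 CPM. Parietal epithelial-like cells had 0 UMIs, and against the 6.99 CPM that 3 UMIs over the 4 libraries would make, endothelial-like cells were at least 15.5-fold higher.

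Cells with at least 500 UMIs were thinned to 500, which left out 379 endothelial-like and 660 podocyte-like cells. A Dll4 UMI was then found in 4.59% of 1480 endothelial-like cells and in 0.0306% of 9809 podocyte-like cells. Unthinned shares, over all cells of the type, were 7.53% at a median depth of 641 UMIs and 0.0478% at 1016 UMIs. The deeper cells therefore had the lower share.

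Jag2 (chr12:112907819-112929776), a Jagged ligand, had few UMIs in the Drop-seq libraries. It stood at 22.6, 26.8, 46.7 and 24.8 CPM in endothelial-like cells, while mural-like cells had 2 UMIs, podocyte-like cells 5, and parietal epithelial-like and tubular-like cells 0. The endothelial-like values were above every other value, and they were higher than the mural-like ones by 2.51 ± 0.91 on the log2 scale (SE, edgeR adjusted p = 0.0383). Against the floor of 1.42 CPM in tubular-like cells they were at least 21.2-fold higher.

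Jag1 (chr2:137081456-137116644, minus strand), the other Jagged ligand, was found in both vascular types. It stood at 81.8, 172, 118 and 275.5 CPM in endothelial-like cells and at 141, 291, 197 and 81.8 CPM in mural-like cells. These 2 groups overlapped, and their difference of 0.33 ± 0.28 on the log2 scale did not pass (SE, edgeR adjusted p = 0.513). Parietal epithelial-like cells had 21.3, 0, 89.5 and 45 CPM, from 15 UMIs, and tubular-like cells 7.49 to 21.3 CPM. Within tubular-like cells, the cluster led by Aqp2 (178 cells) had 59.4, 22.5, 101 and 0 CPM, from 14 UMIs. That led by Pvalb (750 cells) had 0 to 12.2 CPM, from 9 UMIs. Podocyte-like cells had 1.31 to 3.10 CPM, below every library of the vascular types, and their level differed from that of endothelial-like cells by -5.91 ± 0.25 (edgeR adjusted p = 6.96e-117). The order was thus mural-like and endothelial-like, whose difference did not pass, then parietal epithelial-like and tubular-like, whose difference did not pass either (1.15 ± 0.55, edgeR adjusted p = 0.124), and then podocyte-like. This order is that of endothelial-like cells as a whole. Their largest subcluster, with glomerular capillary markers and described below, lay below every mural-like library in Jag1.

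Notch1 (chr2:26457903-26516663), a receptor known for its role in endothelial cells, stood at 197, 234, 351 and 220.4 CPM in endothelial-like cells and at 50.4, 24.2, 45.5 and 61.3 CPM in mural-like cells. It stood at 11.2 to 15.2 CPM in tubular-like, 0 to 14.2 CPM in parietal epithelial-like and 1.02 to 3.07 CPM in podocyte-like cells. Every endothelial-like library lay above every library of the other types, and the difference from mural-like cells was 2.65 ± 0.33 on the log2 scale (SE, edgeR adjusted p = 1.18e-13). Parietal epithelial-like cells differed from mural-like cells by -2.37 ± 0.78 (edgeR adjusted p = 0.0281), but the difference of mural-like from tubular-like cells did not pass (1.20 ± 0.53, edgeR adjusted p = 0.0891). Mural-like cells held 15 Notch1 UMIs. When they were divided again, subclusters 0 and 1 (43 and 37 cells) held 5 and 3 of these. Markers of 2 types stood in 32.6% and 59.5% of those cells. Subclusters 2 and 3 (126 and 120 cells) held 3 and 4. The part of cells with markers of 2 types in the differences from mural-like cells was not tested.

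Notch4 (chr17:34564268-34588503, plus strand), a receptor known mainly from endothelium, stood at 42.3, 61.3, 60.9 and 63.4 CPM in endothelial-like cells, above all other values. The next highest value, 24.2 CPM in mural-like cells of replicate 2, was 1 UMI. The endothelial-like level was higher than the mural-like one by 2.83 ± 0.71 on the log2 scale (SE, edgeR adjusted p = 0.00078) and podocyte-like cells stood below endothelial-like cells, at a difference of -4.12 ± 0.34 (edgeR adjusted p = 1.34e-31). Because podocyte-like cells were so many, 40 of the 135 Notch4 UMIs (29.6%) still lay in them, at 1.83 to 4.82 CPM. The lower call for podocyte-like cells against the mean of the other types (-1.56 ± 0.51, edgeR adjusted p = 0.0108) was lost without replicate 2 (adjusted p = 0.0598) and without replicate 3 (adjusted p = 0.186).

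Notch3 (chr17:32120820-32166852, minus strand), the receptor known from vascular smooth muscle, had most of its UMIs in mural-like cells. It stood at 151, 121, 258 and 245 CPM in mural-like cells, from 61 UMIs. Endothelial-like cells had 0 UMIs in all 4 libraries, so that mural-like cells were at least 95.1-fold above the 2.04 CPM that 3 UMIs would make there. Podocyte-like cells had 7 UMIs, tubular-like cells 6 and parietal epithelial-like cells 1, none of them above 7.09 CPM in a library. Mural-like cells were higher than tubular-like cells by 5.52 ± 0.54 on the log2 scale (SE, edgeR adjusted p = 8.33e-23). With cells of at least 500 UMIs thinned to 500, a Notch3 UMI was found in 8.51% of 282 mural-like cells and in 0.0204% of 9809 podocyte-like cells. Unthinned shares, over all cells of the type, were 15.6% and 0.0669% at median depths of 781.5 and 1016 UMIs. The lower call for endothelial-like cells against the mean of the others (edgeR adjusted p = 0.0131) was lost without replicate 1 (adjusted p = 1.0), replicate 2 (0.0704) or replicate 3 (0.0557).

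Notch2 (chr3:98013527-98150361) stood higher in podocyte-like, parietal epithelial-like and mural-like cells than in the other 2 tested types. It stood at 33.2, 42.9, 52.6 and 51.4 CPM in podocyte-like, 63.8, 81.7, 55.9 and 33.7 CPM in parietal epithelial-like and 50.4, 48.4, 106 and 133 CPM in mural-like cells. These 3 groups overlapped, and no pair of them passed (edgeR adjusted p = 0.148 to 0.838). Endothelial-like cells had 11.5 to 22.3 CPM and tubular-like cells 9.13 to 16.9 CPM, below every library of the first 3 types, and the difference between them did not pass (0.29 ± 0.47, edgeR adjusted p = 0.664). Podocyte-like cells were higher than endothelial-like cells by 1.40 ± 0.31 (edgeR adjusted p = 2.93e-05) and than tubular-like cells by 1.69 ± 0.31 (edgeR adjusted p = 2.16e-07). Of the 673 Notch2 UMIs, 565 (84.0%) lay in podocyte-like cells.

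The calls for Notch2 against the mean of the other types were less steady. The podocyte-like rise of 0.54 ± 0.19 on the log2 scale (SE, edgeR adjusted p = 0.0168, higher in 3 of 4 libraries) was lost with DESeq2 (adjusted p = 0.24). The mural-like rise of 1.44 ± 0.38 (edgeR adjusted p = 0.00201) was 0.99 without replicate 4 and did not pass (adjusted p = 0.255). The endothelial-like fall of -1.21 ± 0.33 (edgeR adjusted p = 0.0014) was -2.65 ± 0.47 when the subclusters rich in podocyte transcripts were left out.

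Single pairs of cell types gave a finer order. Against mural-like cells, endothelial-like cells had 4 members higher (10.5% of all genes tested were), Dll4, Jag2, Notch1 and Notch4, and 2 lower (4.81%), Notch2 and Notch3. Against tubular-like cells they had 7 higher (20.9%) and 1, Notch3, lower (21.1%), on 0 endothelial-like against 6 tubular-like UMIs. Mural-like against tubular-like cells had 5 higher (8.44%), Hes1, Hey1, Jag1, Notch2 and Notch3, and 0 lower (14.8%). The Hey1 call rested on 3 mural-like against 0 tubular-like UMIs and was higher in 2 of 4 libraries. Jag1, Hes1 and Hey1 passed in neither direction between the 2 vascular types.

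The epithelial types were lower than endothelial-like cells in most of the set. Podocyte-like against endothelial-like cells had 1 member higher (16.1%), Notch2, and 7 lower (22.4%), and parietal epithelial-like against endothelial-like cells likewise 1 higher (6.13%), Notch2, and 7 lower (13.6%). Podocyte-like against mural-like cells had 0 higher (10%) and 4 lower (9.16%), Hes1, Jag1, Notch1 and Notch3, and parietal epithelial-like against mural-like cells 0 higher (4.19%) and 4 lower (5.31%), again Hes1, Jag1, Notch1 and Notch3. Among the epithelial types the differences were fewer than against endothelial-like cells. Podocyte-like against parietal epithelial-like cells had 0 higher (2.84%) and 1, Jag1, lower (2.46%). Podocyte markers made up 2.4% of podocyte-like UMIs and 1.55% of parietal epithelial-like UMIs, and their part in this count and in the parietal epithelial-like Notch2 level was not tested. Podocyte-like against tubular-like cells had 1 higher (16.8%), Notch2, and 4 lower (24.5%), Dll4, Jag1, Notch1 and Notch3. Of these, Dll4 rested on 5 podocyte-like and 5 tubular-like UMIs, and Notch3 on 7 and 6. For both genes podocyte-like cells stood higher in 1 of 4 libraries. Parietal epithelial-like against tubular-like cells had 1 higher (8.27%), Notch2, and 0 lower (15.8%).

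**Figure D2:**
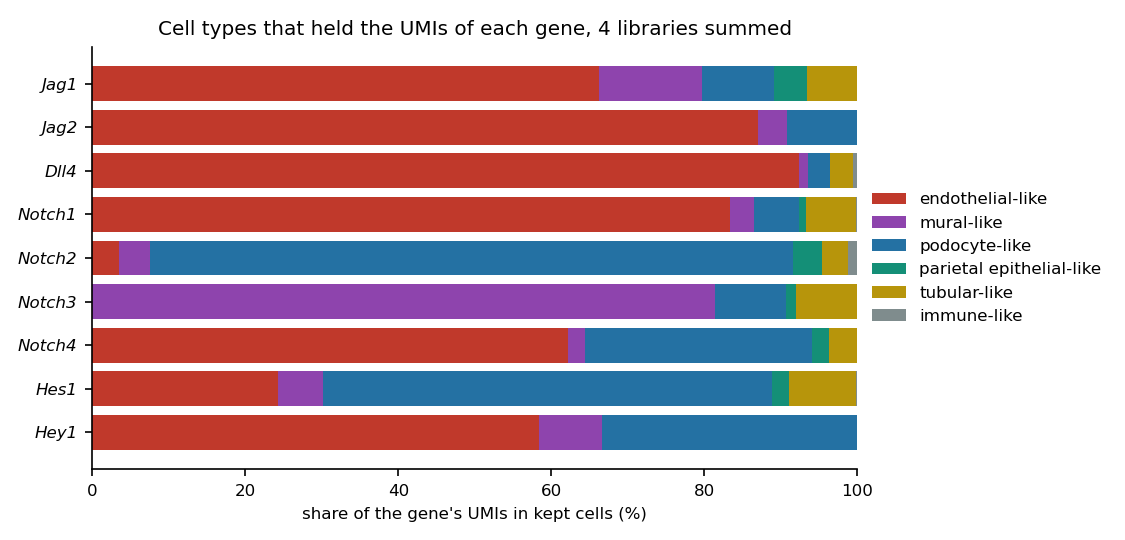
Share of each gene's UMIs (percent, horizontal axis) that lay in each cell type, over the kept cells of 4 Drop-seq libraries summed. Endothelial-like cells hold 92.4% of Dll4, 87.0% of Jag2 and 83.3% of Notch1 UMIs, mural-like cells 81.3% of Notch3, and podocyte-like cells 84.0% of Notch2 UMIs. The shares depend on how many cells of each type were captured.

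Hes1 (chr16:30064384-30067796), a repressor that Notch and other signals switch on, was found in every type. It stood at 468, 582, 469 and 578.5 CPM in endothelial-like cells and at 514, 920.3, 288 and 797 CPM in mural-like cells, which overlapped, and the difference did not pass (0.11 ± 0.15 on the log2 scale, SE, edgeR adjusted p = 0.716). It stood at 105 to 186 CPM in podocyte-like, 113.5 to 227 CPM in parietal epithelial-like and 116 to 155 CPM in tubular-like cells. These 3 groups overlapped as well, and no pair of them passed (edgeR adjusted p = 0.255 to 0.985), while each type as a whole lay below every vascular library. Tubular-like cells joined unlike clusters. The cluster led by Aqp2 (178 cells) had 198, 242, 245 and 636 CPM of Hes1, from 90 UMIs. The 636 CPM, in replicate 4, lay above every endothelial-like library. The cluster led by Pvalb (750 cells) had 90.9 to 131 CPM, and the difference between these clusters was not tested. The difference of podocyte-like from endothelial-like cells was -2.01 ± 0.12 (edgeR adjusted p = 7.4e-65). Hes1 also answers to signals outside the Notch pathway, and the 24 immediate-early genes, which respond to stress of the cell, summed to 31505 ± 5195 CPM in endothelial-like and 33376 ± 6130 CPM in mural-like cells, against 49391 ± 3034 CPM in podocyte-like, 48703 ± 3275 CPM in parietal epithelial-like and 16627 ± 1638 CPM in tubular-like cells (SD, n = 4). Their part in the Hes1 levels was not tested.

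Hey1 (chr3:8663359-8667256), a target known from arterial endothelium, was close to the limit of detection, with 36 UMIs in all. It stood at 8.46, 15.3, 8.12 and 27.5 CPM in endothelial-like cells and at 0, 48.4, 15.2 and 0 CPM, from 3 UMIs, in mural-like cells. Podocyte-like cells had 0.340 to 1.86 CPM, and parietal epithelial-like and tubular-like cells 0 UMIs. The difference of podocyte-like from endothelial-like cells was -3.85 ± 0.61 on the log2 scale (SE, edgeR adjusted p = 2.72e-09), and that of endothelial-like from mural-like cells did not pass (0.88 ± 0.94, edgeR adjusted p = 0.635). The 52 immune-like cells held 8 UMIs of Notch2 (0, 0, 190 and 440 CPM in replicates 1 to 4), 4 of Hes1 and 1 each of Dll4 and Notch1 among these genes and were too few for a test.

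Promoter windows, the 250 bases before the gene's start in RefSeq on GRCm38.p6, were present for 7 of the 9 genes. Those of 2 endothelial genes and of the mural receptor are shown because their transcripts lay in different vessel cells. Capitals mark GGAA or its reverse complement TTCC, the core that ETS family factors bind, and each sequence runs 5′ to 3′ on the gene's strand.
Dll4, chr2:119325534-119325783, plus strand: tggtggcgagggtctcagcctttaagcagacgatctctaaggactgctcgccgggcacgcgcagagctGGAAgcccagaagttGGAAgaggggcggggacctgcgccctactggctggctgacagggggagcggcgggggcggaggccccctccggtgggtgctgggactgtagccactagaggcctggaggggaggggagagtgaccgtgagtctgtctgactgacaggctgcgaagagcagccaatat
Notch4, chr17:34564045-34564294, plus strand: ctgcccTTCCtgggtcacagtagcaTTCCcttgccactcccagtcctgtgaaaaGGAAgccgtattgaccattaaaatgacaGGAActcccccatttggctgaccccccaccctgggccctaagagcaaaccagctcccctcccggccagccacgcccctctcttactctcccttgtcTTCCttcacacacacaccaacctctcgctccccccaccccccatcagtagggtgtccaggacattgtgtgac
Notch3, chr17:32166891-32167140, minus strand: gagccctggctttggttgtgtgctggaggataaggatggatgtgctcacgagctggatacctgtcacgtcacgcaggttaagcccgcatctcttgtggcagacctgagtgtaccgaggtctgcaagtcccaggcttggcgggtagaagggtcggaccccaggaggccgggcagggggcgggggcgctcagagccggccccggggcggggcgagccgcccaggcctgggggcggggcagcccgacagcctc
The window of Notch4 held 5 such cores, a number reached by 18.0% of 32851 promoter windows of the same length, and that of Dll4 held 2, reached by 76.8%. The Notch3 window held 0, whereas 93.4% of all windows held at least 1. Of the other windows, that of Jag2, which like Notch4 was highest in endothelial-like cells, also held 0, that of Notch2 held 3, that of Jag1 3 and that of Notch1 4. TGGGAA, a core bound by Rbpj, was searched on both strands (TGGGAA contains GGAA) and stood in 0 of the 7 windows, against 21.6% of all windows. A match is a description of letters, and its absence says only that these letters were not in this window.

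The genes whose log2 CPM ran most alike over the 20 sums of cell type and library were listed for each member, out of 15409 genes, up to 3 each. For Dll4 they were Fes (Pearson r = 0.97), Gpihbp1 (0.96), whose product anchors lipoprotein lipase to capillaries, and 4833403J16Rik (0.95). For Jag2 they were Ifi211, Fmo1 and Adcy4 (0.97 to 0.98), and for Jag1 they were Col4a2 (0.95), a basement membrane collagen chain, Igfbp4 and Tinagl1 (both 0.93). Notch1 ran with Srgn, Ece1 and Adgrf5 (0.95 to 0.96), and Notch4 with Ptprb (0.94), an endothelial phosphatase, Adgrl4 and Tmem26 (both 0.90). Notch3 ran with Akr1b7 (0.98), a renin cell marker, and Map3k7cl (0.97), and Notch2 with Foxc1 (0.87), a transcription factor, Tpm1 (0.87) and Gm11836 (0.86). Hes1 ran with Cd93 (0.93), an endothelial surface protein, Gm13470 (0.93) and Tead2 (0.92), and Hey1 with Paqr4 (0.92), Cdan1 and Kcnj5 (both 0.88). The sums share libraries and cell type depth, and the correlations are descriptions.

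Of the other 43 pathway genes, 37 were tested between cell types. In endothelial-like cells 16 were higher (21.2% of all genes tested were) and 1 was lower (8.55%). In mural-like cells 4 were higher (6.57%) and 0 lower (5.56%), and in podocyte-like cells 9 were higher (17.9%) and 8 lower (10.3%). In parietal epithelial-like cells 1 was higher (4.49%) and 1 lower (3.35%), and in tubular-like cells 6 were higher (24.3%) and 8 lower (12.1%). Over the 31 of them with a UMI in every type, the median log2 difference was 0.60 in endothelial-like, 0.21 in mural-like, 0.04 in podocyte-like, -0.64 in parietal epithelial-like and 0.17 in tubular-like cells. The medians over all such genes were 0.13 in endothelial-like, -0.20 in mural-like, 0.08 in podocyte-like, -0.14 in parietal epithelial-like and 0.10 in tubular-like cells.

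In endothelial-like cells the rises included Mfng and Lfng, of the Fringe glycosyltransferases that modify Notch receptors and tune their choice of ligand, and Egfl7, a secreted endothelial protein that binds Notch. Mfng stood at 53.6 ± 7.10 CPM in endothelial-like cells (SD, n = 4) and at 0 in mural-like cells, a difference of at least 5.44-fold over the floor. Lfng rose by 2.53 ± 0.34 and Egfl7 by 6.19 ± 0.12 on the log2 scale (SE), with edgeR adjusted p = 1.74e-12 for Lfng. The other Fringe gene, Rfng, did not pass (-0.07 ± 0.48, edgeR adjusted p = 0.967). Dtx3, of the Deltex family, was lower (-1.08 ± 0.33, edgeR adjusted p = 0.00525) against the mean of the other types, but not against all other cells summed (-0.08, edgeR adjusted p = 0.88).

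In mural-like cells the 4 higher genes were the targets Nrarp and Hey2 and, of the inhibitors and turnover genes, Dtx3 and Egfl7, the last of them at 15.2 to 170 CPM in mural-like cells, below every endothelial-like library (1303 to 1466 CPM). Its difference was 1.01 ± 0.35 against the mean of the other types (log2, SE, edgeR adjusted p = 0.0302) and turned to -0.83 against all other cells summed (edgeR adjusted p = 0.0393). Nrarp, a target that also damps Notch signalling, stood at 168 ± 91.7 CPM in mural-like cells (SD, n = 4), against 52.2 ± 12.7 CPM in endothelial-like and 0.220 ± 0.154 CPM in podocyte-like cells. Its rise was 5.36 ± 0.43 on the log2 scale (SE, edgeR adjusted p = 6.87e-34). Hey2 stood at 45 ± 12.7 CPM in mural-like cells (14 UMIs), against 7.96 ± 6.17 CPM in endothelial-like cells (11 UMIs) and 0 UMIs in tubular-like cells. Dtx3 rose by 2.33 ± 0.33 (edgeR adjusted p = 5.47e-11). Heyl, whose product belongs to the same family and which was left out of the test for its low total, had 13 UMIs in mural-like cells and 0 in endothelial-like cells, and it was chosen after its values were seen.

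In podocyte-like cells the gamma-secretase gene Aph1a (1.35 ± 0.34 on the log2 scale, SE, edgeR adjusted p = 0.00041) and the ligand ubiquitin ligase gene Mib2 (1.02 ± 0.26, edgeR adjusted p = 0.000626) rose. Mib2 was lost with DESeq2 (adjusted p = 0.0626). Nrarp, Egfl7 and Maml2, a nuclear coactivator of Notch, were lower there, by -5.28 ± 1.12, -3.47 ± 0.41 and -2.60 ± 0.49. The Nrarp call was lost without replicate 2 (-3.22, adjusted p = 1.0). In parietal epithelial-like cells Egfl7 was lower (-2.83 ± 0.49, edgeR adjusted p = 3.98e-07). In tubular-like cells the gamma-secretase genes Aph1c and Aph1b rose and Lfng, Hey2 and the receptor protease gene Adam10 were lower. Aph1c stood at 28.9 ± 6.37 CPM in tubular-like cells (SD, n = 4), against 1.13 ± 0.223 CPM in podocyte-like cells and 0 UMIs in mural-like and parietal epithelial-like cells. Adam10 fell by 1.23 ± 0.24 (log2, SE, edgeR adjusted p = 2.7e-06). The tubular-like call for Lfng did not pass without replicate 3 (adjusted p = 0.0649).

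Endothelial-like cells were divided again without the pathway genes. Subcluster 3 (153 cells) was led by Mgp and Fbln5 and carried arterial markers, and subcluster 2 (1057 cells) carried glomerular capillary markers such as Ehd3, Kdr and Plat. Subcluster 1 (435 cells) was led by Calca, Tspan8 and Plac8 and was given no name. Subcluster 0 (214 cells) was led by podocyte transcripts, and 54.7% of its cells carried markers of 2 types. Each subcluster was tested against the mean of the other 3 with edgeR over 8106 genes, 8 of the 9 members among them, since Notch3 had 0 UMIs in all 4 subclusters. In the arterial-like subcluster 3 of the 8 were higher (2.1% of all genes tested were) and 0 lower (2.78%), and in the capillary-like subcluster 3 were higher (10.5%) and 1 was lower (2.05%). In subcluster 1 no member was called higher (3.12%) or lower (1.62%), and in subcluster 0 there was 1 higher (11%) and 4 were lower (5.88%).

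Jag1 separated the 2 named subclusters. It stood at 823, 990, 1295 and 1241 CPM in the arterial-like subcluster, 17.9, 43.5, 16.2 and 48.0 CPM in the capillary-like one and 123 to 231 CPM in subcluster 1. Every arterial-like library lay above every other one, and 147 of the 232 endothelial-like Jag1 UMIs lay in these 153 cells. Every capillary-like value lay below every mural-like library (81.8 to 291 CPM) and within the range of parietal epithelial-like cells (0 to 89.5 CPM). Subclusters were not tested against other cell types. The capillary-like subcluster differed from the arterial-like one by -4.77 ± 0.32 on the log2 scale (SE, edgeR adjusted p = 2.35e-47), and subcluster 1 lay between them (1 against 3: -2.40 ± 0.28, edgeR adjusted p = 1.2e-14). Between subclusters 1 and 3, Jag1 was the 1 member lower in subcluster 1 (1.31% of all genes were) and 0 were higher (2.33%), and in the capillary-like against the arterial-like subcluster 1 member, Hes1, was higher (6.08%) and 1, Jag1, was lower (1.9%). Replicate 4 gave 69 of the 153 arterial-like cells and had the highest Jag1 level among endothelial-like libraries, 275.5 CPM.

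Notch4 and Hey1 stood highest in the arterial-like subcluster too. Notch4 stood there at 145, 114, 162 and 207 CPM, against 35.7 to 72.9 CPM in the capillary-like subcluster, and the rise against the mean of the other 3 was 1.84 ± 0.49 on the log2 scale (SE, edgeR adjusted p = 0.0054). Without replicate 4 it was 1.46 and did not pass (adjusted p = 0.251), and without cells that carry markers of 2 types it was 1.05 (adjusted p = 0.444). Hey1 rested on 9 UMIs in the arterial-like subcluster, at 96.8, 38.1, 40.5 and 86.2 CPM, against 9 UMIs at 5.95 to 21.7 CPM in the capillary-like one. Its rise of 2.67 ± 0.84 passed (edgeR adjusted p = 0.0358), but neither Notch4 nor Hey1 passed between these 2 subclusters alone (edgeR adjusted p = 0.0827 and 0.166).

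Hes1 and Notch1 were highest in the capillary-like subcluster. Hes1 stood at 708, 818, 644 and 694 CPM there, above the 290.5, 533, 526 and 620.3 CPM of the arterial-like subcluster in every library, a difference of 0.82 ± 0.24 on the log2 scale (SE, edgeR adjusted p = 0.00931). Notch1 stood at 280, 290, 514 and 283 CPM in the capillary-like and 242, 152, 324 and 241 CPM in the arterial-like subcluster. Notch1 was higher in the capillary-like subcluster in 4 of 4 libraries, but the groups overlapped and the pair did not pass (0.80 ± 0.31, edgeR adjusted p = 0.0905), while the rise of the capillary-like cells against the mean of the other 3 did (1.36 ± 0.21, edgeR adjusted p = 1.12e-08). Without the subcluster rich in podocyte transcripts that rise was 0.75 (edgeR adjusted p = 0.0161) and that of Hes1 1.02 (edgeR adjusted p = 1.2e-06).

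Dll4 stood at 119, 167, 162 and 123 CPM in the capillary-like and at 242, 114, 40.5 and 121 CPM in the arterial-like subcluster. These overlapped and the difference did not pass (0.53 ± 0.43 on the log2 scale, SE, edgeR adjusted p = 0.536). The capillary-like rise against the mean of the other 3 (1.08 ± 0.29, edgeR adjusted p = 0.00278) was lost without replicate 3 (0.78, adjusted p = 0.157), with DESeq2 (adjusted p = 0.0862) and without the subcluster rich in podocyte transcripts (0.84, adjusted p = 0.0887). Jag2 had 2 to 24 UMIs in a subcluster and passed in none of them against the mean of the other 3. Notch2 had 17 of its 24 endothelial-like UMIs in subcluster 0, where podocyte transcripts led, 4 in the capillary-like subcluster and 0 in the arterial-like one. The 4 falls of subcluster 0 were Hes1, Jag1, Notch1 and Notch4, and that of Notch4 (-1.74 ± 0.58, edgeR adjusted p = 0.0222) was lost without replicate 2 (adjusted p = 0.103) and without replicate 4 (0.0508).

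**Figure D3:**
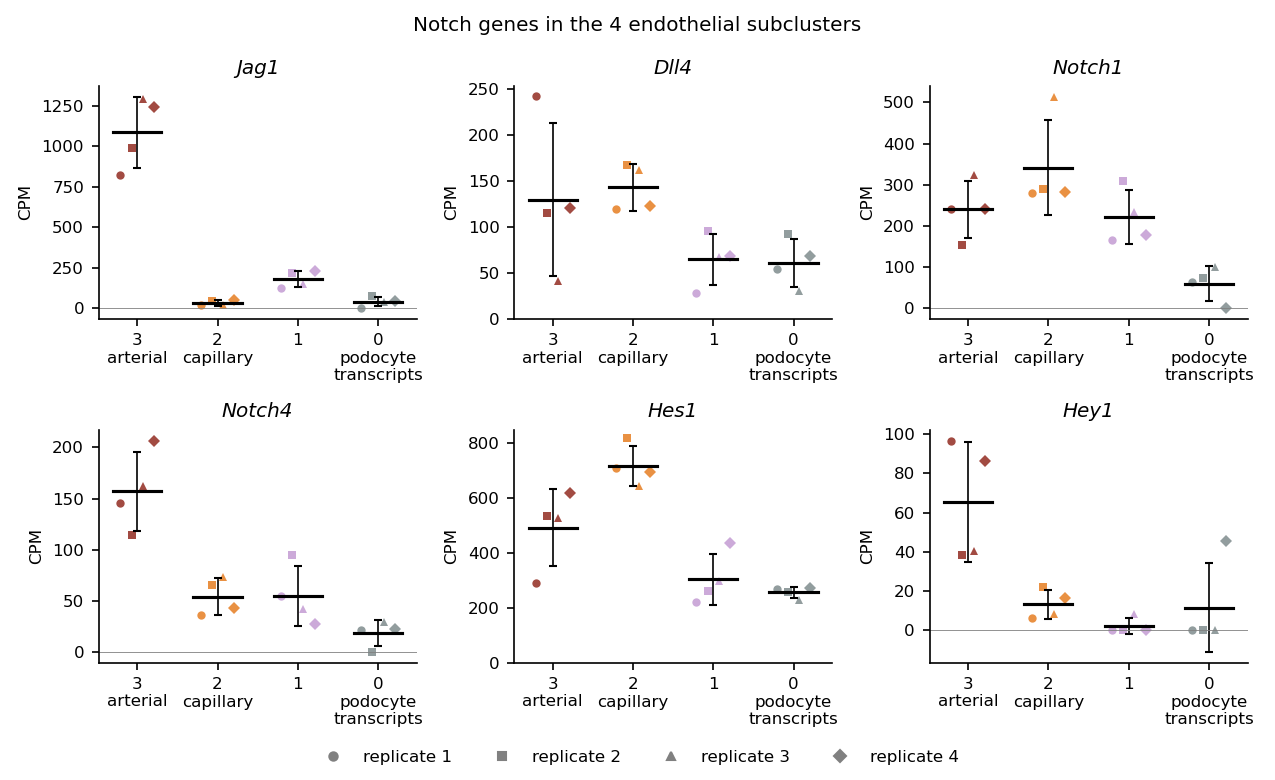
CPM of 6 of the genes in the 4 endothelial-like subclusters (arterial-like 3, capillary-like 2, unnamed 1, and 0 with podocyte transcripts), with one symbol per Drop-seq library, the mean as a bar and the SD over 4 libraries as a whisker. Jag1 runs from 823 to 1295 CPM in the arterial-like subcluster and from 16.2 to 48.0 CPM in the capillary-like one, and Hes1 is highest in the capillary-like one.

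Among the other pathway genes, 30 were tested between these subclusters. In the arterial-like one 1 rose (2.1% of all genes tested did) and 1 fell (2.78%). In the capillary-like one 4 rose (10.5%) and 0 fell (2.05%). Subcluster 1 had 2 rises (3.12%) and 0 falls (1.62%), and subcluster 0 had 2 rises (11%) and 4 falls (5.88%). Nrarp stood at 182 ± 82.8 CPM in the arterial-like subcluster (SD, n = 4), against 53.1 ± 22.4 CPM in the capillary-like one, a rise of 2.01 ± 0.50 against the mean of the other 3 (log2, SE, edgeR adjusted p = 0.00282). Lfng had 0 UMIs in the arterial-like subcluster and 49 in the capillary-like one, at 67.0 ± 8.76 CPM, at least 2.90-fold above the floor of 23.1 CPM. The fall of Lfng in the arterial-like subcluster (edgeR adjusted p = 0.0135) did not pass without replicate 2 (0.0806), replicate 3 (0.0683) or replicate 4 (0.193). Egfl7 rose in the capillary-like subcluster by 1.59 ± 0.13 (edgeR adjusted p = 3.29e-31). Numb, an inhibitor of Notch, rose in subcluster 1 (1.43 ± 0.37, edgeR adjusted p = 0.00397) and was lower in subcluster 0 (-2.56 ± 0.56, edgeR adjusted p = 8.81e-05), where Furin, which matures the receptor, was lower as well (-1.84 ± 0.54, edgeR adjusted p = 0.00578) and Mib2 rose (2.73 ± 0.98, edgeR adjusted p = 0.0343).

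Mural-like cells gave 4 subclusters, and 2 had enough cells for a test, over 2111 genes with 4 of the members. Subcluster 3 (120 cells) was led by Ren1, the renin gene, and subcluster 2 (126 cells) carried renin and smooth muscle markers as well. Notch3 stood at 373, 141, 414 and 331.5 CPM in subcluster 3 and at 117, 97.4, 204 and 294 CPM in subcluster 2, higher in each of the 4 libraries without passing (0.83 ± 0.46 on the log2 scale, SE, edgeR adjusted p = 0.467). Hes1 was the 1 of the 4 members called higher in subcluster 3 (1.56% of the 2111 genes were), and 0 were lower (3.13%). It stood at 709, 1412, 489 and 1045 CPM in subcluster 3, against 469, 731, 163 and 560.5 CPM in subcluster 2 (0.97 ± 0.30, edgeR adjusted p = 0.0337, higher in 4 of 4 libraries). The call was lost without replicate 2, 3 or 4 (adjusted p = 0.147, 0.123 and 0.217), with DESeq2 (0.334) and with no pairing by library (0.139).

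Cells with mesangial markers were few. Subcluster 0 (43 cells), which carried the mesangial markers Ptn, Itga8 and Art3, held 31 Hes1 UMIs, 5 of Notch1, 3 of Jag1 and 1 of Notch3, and 0 of Notch2. Markers of 2 types stood in 32.6% of these cells, which also held 13 UMIs of Egfl7 and 1 each of Dll4 and Notch4, and their part in the counts was not tested. In subcluster 0 the floor of 3 UMIs was 71.1 CPM. The 1 Notch3 UMI was fewer than that, and it does not set a Notch3 level for these cells.

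In bulk RNA-seq the dissociated library was set against the whole glomeruli. With 1 library per group the difference has no replicate check, and no test was made. Among 12692 genes with at least 100 counts, 6 of the 9 members were lower in the dissociated library by at least 2-fold (19.1% of all genes were) and 0 were higher by as much (10.6%). The median log2 ratio of the 9, dissociated over whole, was -2.02, against -0.02 over all genes. Fewer cells of a type and less RNA per cell cannot be told apart in such samples.

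Notch3 had 362 counts in the dissociated and 4179 in the whole library, a TMM-scaled level of 16.4 against 132 CPM, 8.05-fold lower. Hey1 had 70 against 746 counts (7.32-fold lower), Notch4 1069 against 8380 (5.48-fold lower), Jag1 500 against 3417 (4.77-fold lower) and Jag2 686 against 3993 (4.07-fold lower). Notch1 had 1878 against 6728 counts, 2.51-fold lower. The 2 genes that podocyte-like cells held most UMIs of went the other way without reaching 2-fold: Notch2 had 2683 against 2292 counts (log2 ratio 0.74) and Hes1 2149 against 1850 (0.73). Dll4 had 1242 against 3140 counts (log2 ratio -0.82), and with library totals in place of TMM scaling its ratio of -1.13 passed 2-fold, a scaling that moved the median of all genes to -0.32.

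Cell type markers moved between the same 2 libraries. The mesangial markers had a median log2 ratio of -4.75, with 8 of 8 lower by at least 2-fold, their TMM-scaled CPM summing to 355 in the dissociated and 4249 in the whole library. The smooth muscle and renin markers had a median of -0.16, with 2 of 6 lower by at least 2-fold, Des (-3.76) and Rgs5 (-1.56), while Acta2 stood at 0.05, Ren1 at -0.13 and Akr1b7 at 0.15. The 9 endothelial markers had a median of -1.63 (6 lower, 1 higher) and the 8 glomerular capillary markers of -2.70. The arterial endothelial markers, 9 of them with at least 100 counts, had a median of -1.40 (8 lower, 0 higher). The podocyte markers had a median of 1.29, with 8 of 10 higher, and 18 of the 24 immediate-early genes were higher, with a median of 2.88. Their part in the ratios of the Notch genes was not tested.

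Levels were also divided by the joined length of all annotated exons of a gene, 14232 bases for Notch1 and 2037 for Hes1. The order of the genes depends on these lengths, and which transcripts were present was not examined. Whole glomeruli held Notch4 at 32.9, Hes1 at 28.8, Dll4 at 25.8, Jag1 at 18.6, Jag2 at 18.2, Notch3 at 16.4, Notch1 at 15.0, Hey1 at 7.24 and Notch2 at 6.74 CPM per kb. The dissociated library had another order, with Hes1 at 47.7, Dll4 at 14.6 and Notch2 at 11.3 CPM per kb leading and Notch3 at 2.02 and Hey1 at 0.970 CPM per kb last. Notch4, first in the whole library, stood at 6.0 CPM per kb in the dissociated one. Drop-seq levels over all barcodes, not divided by length, differed from the dissociated bulk levels. Jag2 stood at 3.66 ± 2.98 CPM (SD, n = 4) against 31.0 in bulk, and Notch4 at 8.30 ± 3.90 against 48.4. Jag1 stood at 21.8 ± 9.31 against 22.6, and Hes1 at 177 ± 17.2 against 97.2. UMIs and reads are unlike measures, and the reason for these differences was not tested.

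**Figure D4:**
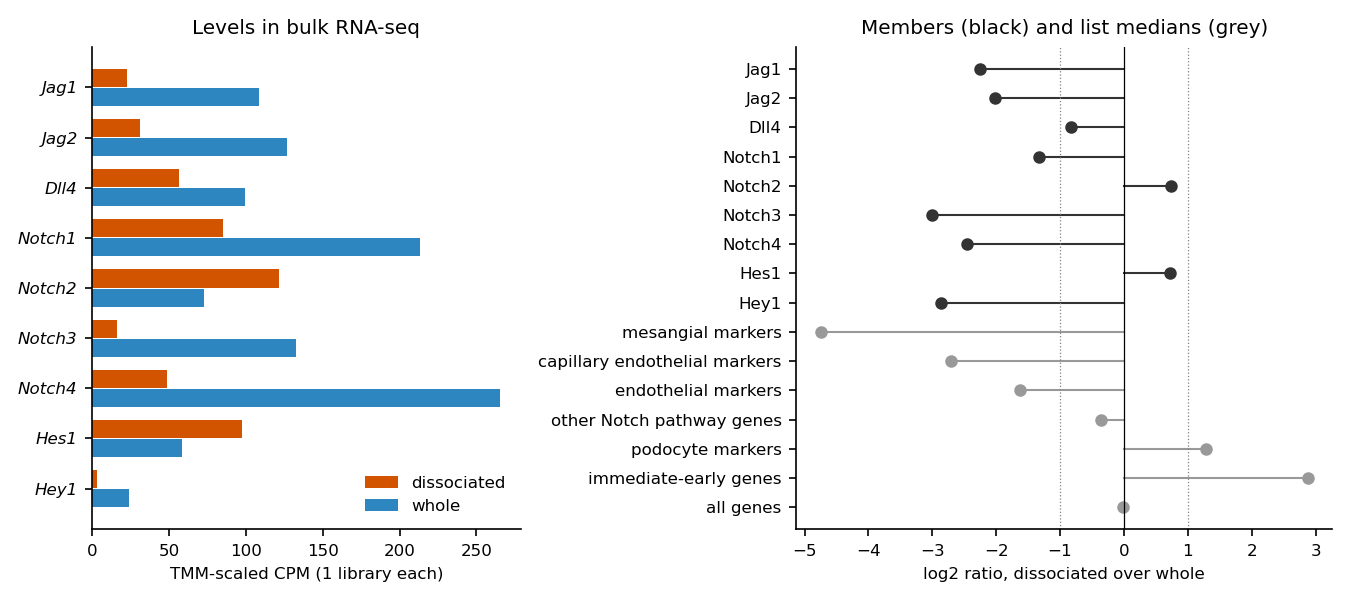
Left, TMM-scaled CPM of the 9 genes in the dissociated and the whole bulk library (1 library each). Right, log2 ratio of dissociated over whole for the 9 genes (black) and the median ratio of marker and gene lists (grey), with dotted lines at 2-fold; 6 genes lie below the lower line, and Notch2 and Hes1 lie above 0.

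Of the other pathway genes 39 had at least 100 counts, with a median log2 ratio of -0.35. By at least 2-fold, 14 were lower (19.1% of all genes were) and 1 was higher (10.6%). The lowest were Neurl1b, a ligand ubiquitin ligase gene (110 against 1592 counts, log2 ratio -3.32), Maml2 (153 against 1606, -2.86), the gamma-secretase gene Psen2 (254 against 2261, -2.63), Dtx3 (868 against 4824, -1.96) and Heyl (119 against 592, -1.79). The gamma-secretase subunit gene Psenen was the 1 gene higher by 2-fold (1280 against 759 counts, log2 ratio 1.27), followed by Snw1 (0.72), Aph1a (0.52), Lfng (0.41) and Dtx4 (0.27).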

How the data were processed

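Drop-seq values were UMI counts per gene and barcode, and bulk values read counts per gene, both made by the authors and deposited as counts. STAR and HTSeq are named in the submitters' processing notes. Their versions, the genome build, annotation and strand setting are not given in the sources used here. Per the labels' protocols the bulk libraries came from a stranded TruSeq mRNA kit, with 95 ng of RNA (dissociated) and 500 ng (whole). Gene positions are from GENCODE on GRCm38.

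Barcodes with fewer than 300 genes (888) or over 20% mitochondrial UMIs (584) were left out. Replicates 1 to 4 kept 4099, 4017, 2809 and 3068 cells. Clusters came from 2000 variable genes, 30 components, 15 neighbours and Leiden resolution 1.0 (scanpy 1.11.5), subclusters from 1000 variable genes at resolution 0.5, all without the 52 pathway genes, and were named by the highest mean z-score among marker lists with at least 3 markers in 5% of cells. The clusters were drawn from other genes of the same cells. No doublet caller was used, and cells with at least 2 markers and 3 UMIs of each of 2 types were counted (6.13%). All pairs of Drop-seq libraries differed beyond counting noise (chi-square over degrees of freedom 4.37 to 14.1).

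UMIs were summed per library and type (at least 20 cells, subclusters 10, in at least 3 libraries) and genes with at least 20 UMIs in all were tested with edgeR 4.0.16 (quasi-likelihood, TMM, library as a block because all types of a replicate come from 1 library, Benjamini-Hochberg, 0.05) and, as an alternative, DESeq2 1.42.0, on R 4.3.3. The fits were tested on simulated counts with a fixed dispersion and no library effect, where only genes above a minimum mean count were changed. Between cell types Hey1, Jag2 and Notch3 lay below that minimum, so that the simulation does not cover their counts. The SE of an edgeR log2 difference was its size over the square root of the quasi-likelihood F statistic. This is an approximation and is unreliable where counts are near 0. Bulk log2 ratios used TMM and a prior count of 2. Floors are 3 UMIs over the 4 sums and cover counting error only.

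The members and lists were chosen with earlier results of these data known. Named were all 9 members, up to 3 other pathway genes per cell type and direction (2 per subcluster) past the threshold in the same direction in every library, and up to 5 per direction in bulk. A few genes that this rule takes are not reported here. Other alternatives were further cell filters, gene filters, clusterings and leaving out each library.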

Additional observations from a re-analysis of the deposited data

Results flagged for a closer look

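Among 56 groups of 4 libraries with at least 10 UMIs of a member, 2 had 1 library standing apart by Dixon's ratio, which chance alone does in about 1 group of 20. Notch4 in endothelial-like cells was 42.3 CPM in replicate 1, against 60.9 to 63.4 CPM in the other replicates. Notch1 in the capillary-like endothelial subcluster was 514 CPM in replicate 3, against 280 to 290 CPM in the other replicates. In barcodes outside the comparisons, 162 Hes1 UMIs were found in the 1472 barcodes that were left out, or 116 CPM, against 182 CPM in kept cells, and above the 2.15 CPM that 3 UMIs make there.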

How the results depend on the processing

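All 22 member calls between cell types kept their direction under the alternatives run, and 25 of 347 values no longer passed. The lower calls numbered 17 against all other cells summed, 6 with at most 10% mitochondrial UMIs and 6 with types from each cell's own markers (which gave no parietal epithelial-like type), against 10. The 10% limit kept 42, 83 and 20 tubular-like cells in replicates 1, 2 and 3, and too few in replicate 4. Leaving out 1 library gave 11 to 12 higher and 8 to 10 lower calls. Between endothelial subclusters the 7 higher calls became 4 with at least 500 genes per cell, 4 without cells carrying markers of 2 types, 4 without the subcluster rich in podocyte transcripts (an alternative added after seeing the data) and 3 with filterByExpr, which left fewer genes tested. The 5 lower calls became 2 without cells carrying markers of 2 types and 2 without that subcluster, whose own calls were then gone. Leaving out 1 library gave 4 to 6 higher and 4 to 5 lower calls. The cause of the other shifts was not tested. The 1 mural call became 0 with DESeq2, with at least 500 genes, with no gene filter, with no replicate block and without cells carrying markers of 2 types, and 0 to 1 when 1 library was left out. Fits with no replicate block changed no other member call. Mural subclusters at resolution 0.3 left 1 with enough cells and were not run. In bulk 27 of 36 alternative ratios of the members stayed within 0.1. The 9 that moved were those from library totals without TMM, where 7 members were lower by 2-fold.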
